A study of Mus musculus with 35 samples.

Results

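The loci of 8 immediate-early genes were followed in macrophage chromatin: Fos, Jun, Junb, Egr1, Atf3, Dusp1, Zfp36 and Myc. A locus was a fixed mm9 window of 25 to 85 kb, and its members were all listed regions of up to 100 kb that overlapped the window in any of 35 region lists. The rule found 485 regions of 250088 in all lists, and 149 wider regions over the windows were left out by it. The members numbered 60 at Fos, 23 at Jun, 87 at Junb, 26 at Egr1, 81 at Atf3, 87 at Dusp1, 108 at Zfp36 and 13 at Myc. The windows were drawn around the genes but also reach neighbouring DNA, so a region in a window is given by its position and not assigned to a transcript.

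The cells were macrophages grown from the bone marrow of wild type female C57BL/6 mice aged 8 to 12 weeks. They were stimulated with lipopolysaccharide (LPS), a cell wall component of Gram-negative bacteria that activates Toll-like receptor signalling, or left unstimulated. Chromatin immunoprecipitation and sequencing (ChIP-seq) of 6 targets gave 1 list per library. For the NF-κB subunit p50 there were 4 lists at 60 min of LPS and 3 unstimulated lists. For the NF-κB subunit p65 there was 1 unstimulated list, with 2 lists at 60 min and 2 at 120 min. The transcription factor ATF3 had 3 lists at 240 min and no unstimulated list. Acetylated histone H4 (H4ac), a mark of open and active chromatin, had 2 lists each unstimulated and at 60, 120 and 240 min. RNA polymerase II (Pol II) had 1 unstimulated list, 2 at 60 min, 1 at 120 min, 2 at 240 min and 1 at 360 min. Histone H3 trimethylated at lysine 27 (H3K27me3), a mark of Polycomb-repressed chromatin, had 1 list each unstimulated, at 120, 240 and 480 min, and after 60 min of LPS with a label of a 7 h delay.

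Replicates are named by the letter in their title, and nothing in the labels says that they came from separate animals or cultures. Any p-value therefore measures the spread among these lists alone, and that spread can be technical. The titles also carry a date. For Pol II, p65 and H3K27me3 no LPS list shares the date of the unstimulated list, so LPS and date cannot be told apart there. For p50 and H4ac some LPS and unstimulated lists share a date. The lists held 324 to 1378 regions for p50, 255 to 2285 for p65, 1257 to 3954 for ATF3, 15256 to 28522 for H4ac, 2948 to 7728 for Pol II and 2687 to 4707 for H3K27me3. They hold no read counts, so the depth is unknown, and a region that is not listed is not thereby unbound. The p50 list LPS D stood apart with 324 regions, against 1118 to 1378 in the other LPS lists, and held none of up to 100 kb in any window. Macrophage marker loci were not analysed here, since no mm9 annotation was used.

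Immediate-early genes are transcribed within minutes of a stimulus, from promoters that are already open, without the need for new protein synthesis. Several encode transcription factors that shape the later response, and others encode proteins that limit it. In macrophages, LPS drives their transcription through mitogen-activated protein kinases acting on serum response factor and its partners, through cyclic-AMP response element (CRE) binding factors and through NF-κB. ATF3 belongs to the CRE-binding family, is itself induced by LPS and is known as a brake on inflammatory genes.

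The promoters show which of these factors' recognition sequences lie just before the start sites. RefSeq promoter sequence of build GRCm38.p6 was matched for 6 of the 8 genes, and Egr1 and Myc were not matched. The 250 bases before the start of 4 genes are shown, those with a full motif or with the ATF3 gene's own promoter, 5′ to 3′ on the gene's strand, with motif matches in capitals. The start sites are on GRCm38.p6 and the regions on mm9, so the promoters were not placed against the regions.
Fos, chr12:85473640-85473889, plus strand: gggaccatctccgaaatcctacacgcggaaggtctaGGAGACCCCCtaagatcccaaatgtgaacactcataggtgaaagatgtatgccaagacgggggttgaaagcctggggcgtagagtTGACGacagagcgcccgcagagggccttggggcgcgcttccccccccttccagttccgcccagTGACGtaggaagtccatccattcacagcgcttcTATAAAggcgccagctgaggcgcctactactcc
Atf3, chr1:191183334-191183583, minus strand: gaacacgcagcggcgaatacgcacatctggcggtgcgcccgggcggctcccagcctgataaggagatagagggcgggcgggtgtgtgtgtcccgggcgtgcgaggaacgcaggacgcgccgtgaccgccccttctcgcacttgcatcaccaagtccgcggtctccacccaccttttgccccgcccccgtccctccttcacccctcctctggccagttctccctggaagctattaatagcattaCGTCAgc
Dusp1, chr17:26508473-26508722, minus strand: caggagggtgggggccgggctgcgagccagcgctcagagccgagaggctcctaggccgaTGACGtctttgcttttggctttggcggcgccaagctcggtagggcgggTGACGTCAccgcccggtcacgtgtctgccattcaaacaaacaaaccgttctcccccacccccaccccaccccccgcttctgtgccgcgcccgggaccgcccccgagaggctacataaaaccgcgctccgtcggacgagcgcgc
Zfp36, chr7:28379229-28379478, minus strand: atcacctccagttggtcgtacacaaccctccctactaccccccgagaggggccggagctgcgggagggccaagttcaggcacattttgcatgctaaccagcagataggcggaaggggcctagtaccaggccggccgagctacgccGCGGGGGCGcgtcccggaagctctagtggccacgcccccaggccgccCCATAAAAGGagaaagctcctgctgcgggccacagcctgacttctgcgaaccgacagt

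Motifs were searched on both strands. The full CRE, TGACGTCA, was in the Dusp1 promoter, starting 143 bases before the start site, and in 1.55% of 32851 RefSeq promoters of the same length. The shorter TGACG, which the full CRE contains, was in 4 of the 6 promoters, Fos, Junb, Atf3 and Dusp1, and in 17.8% of all promoters. In Atf3 it read CGTCA, the reverse strand form, starting 7 bases before the start site. A NF-κB motif was in Fos, starting 214 bases before the start site, and in 3.9% of all promoters. A CArG box, the sequence bound by serum response factor, was in Zfp36, starting 58 bases before the start site, and in 1.47% of all promoters. The EGR motif GCGNGGGCG was in Zfp36 and in 4.7% of all promoters, and TATAAA was in Fos and in 12.4% of all promoters. The AP-1 motif TGANTCA was in none of the 6 promoters and in 6.75% of all promoters. A match describes these letters in this window and shows no binding.

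Among regions of up to 100 kb, all 8 H4ac lists held one at Fos, Jun, Junb, Atf3, Dusp1 and Zfp36. So did all 7 Pol II lists. Egr1 was held by 7 H4ac and 5 Pol II lists, and Myc by 5 H4ac and 4 Pol II lists. The members were made up of 270 H4ac, 172 Pol II, 20 p50, 13 ATF3, 8 p65 and 2 H3K27me3 regions. No p50 or p65 list held a region of up to 100 kb at Fos, Jun, Egr1 or Myc. Wider p50 regions, left out by the rule, lay over Fos in 7 of 7 lists and over Egr1 and Myc in 1 of 7 each. Wider p65 regions lay over Fos and Egr1 in 3 of 5 lists each and over Jun in 1 of 5. NF-κB regions of up to 100 kb lay in the Junb, Dusp1 and Zfp36 windows, apart from 1 p65 region at Atf3.

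**Figure D1:**
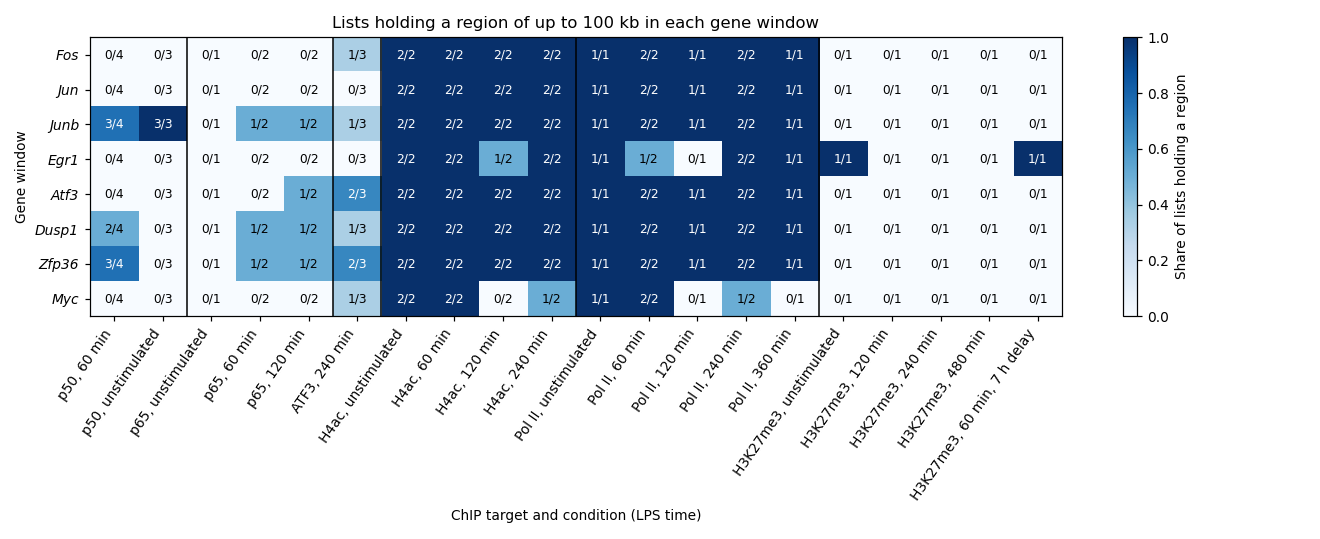
Number of lists holding at least 1 region of up to 100 kb in each gene window (rows), by target and condition (columns), out of the lists of that group; the shade is the share of lists. H4ac and Pol II fill nearly every row, p50 and p65 appear at Junb, Dusp1 and Zfp36, and H3K27me3 appears only at Egr1, in 2 of 5 lists.

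Junb encodes an AP-1 subunit, and its window (chr8:87485000-87515000) held p50 with and without LPS. A narrow p50 region at Junb spanned chr8:87500371-87500630 in LPS A, chr8:87500361-87500730 in LPS B and chr8:87500401-87500530 in LPS C. The unstimulated lists held it at chr8:87500411-87500570 in A, chr8:87500451-87500550 in C and chr8:87500411-87500550 in D. The same site was thus listed in 3 of 4 LPS lists and in 3 of 3 unstimulated lists. Its score, the authors' own value used only to rank regions within a list, stood at percentiles 81.1, 82.3 and 74.4 of the LPS lists A, B and C. In the unstimulated lists A, C and D it stood at percentiles 92.7, 88.6 and 89.5. The lists differ in length, so these ranks show no change.

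The p50 regions at Junb varied in breadth. They covered 9620, 1940, 9990 and 0 bp of the window in LPS A, B, C and D, against 160, 100 and 140 bp in unstimulated A, C and D. LPS A and C each held a region that ran on for almost 10 kb from the narrow site, chr8:87500161-87509780 and chr8:87499991-87509980. LPS B held a second region of 1570 bp at chr8:87503601-87505170. The LPS values lay above all unstimulated values in A, B and C and below them in D, so the groups overlapped. The exact two-sided permutation test gave p = 0.229, and 4 lists against 3 cannot go below 0.057.

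Zfp36 encodes tristetraprolin, which binds AU-rich elements in cytokine mRNAs and speeds their decay. It was the 1 window where p50 was called gained, meaning held in at least 3 LPS lists and in no unstimulated list. Of all 40 kb genome tiles with a p50 region, 11.0% were called gained. Only the Junb, Dusp1 and Zfp36 windows held p50 regions of up to 10 kb, so the like count is 1 of 3 windows. So few windows cannot be told apart from the background, and the share was not tested. The p50 regions covered 190, 730, 1290 and 0 bp of the Zfp36 window (chr7:29150000-29175000) in LPS A, B, C and D, against 0 bp in each of the 3 unstimulated lists. The shared site lay at chr7:29170951-29171140 in LPS A, chr7:29170901-29171070 in LPS B and chr7:29170891-29171090 in LPS C. Merged over lists it is 250 bp wide, and 9.60% of 2478 merged p50 regions were called gained. Its scores stood at percentiles 68.9, 57.2 and 78.1 of LPS A, B and C. A second p50 site was listed in LPS B at chr7:29165881-29166440 and in LPS C at chr7:29165951-29167040. The exact permutation p for covered length was 0.229. With lists cut to equal length no window was gained. Since a call needs 3 LPS lists, leaving out LPS A, B or C ends it, and without LPS D the Junb and Zfp36 windows were higher in all 3 LPS lists.

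Dusp1 encodes a nuclear phosphatase that switches off p38 and JNK, and it is among the main feedback inhibitors of LPS signalling. With regions of up to 10 kb, p50 covered 480, 0, 180 and 0 bp of the Dusp1 window (chr17:26625000-26660000) in LPS A, B, C and D. The 3 unstimulated lists covered 0 bp. Wider p50 regions, of over 100 kb, lay over Dusp1 in 3 of 4 LPS lists, A, B and C, and in 1 of 3 unstimulated lists, A. LPS A and C shared a site at chr17:26634371-26634470 and chr17:26634291-26634470, at low score percentiles of 41.5 and 12.1. LPS A alone held 2 more, at chr17:26640001-26640140 and chr17:26645291-26645530. A call needs 3 LPS lists and Dusp1 had 2, and the exact permutation p was 0.571. Over all 2235 tiles and windows tested for p50 covered length, 0 passed an adjusted p of 0.05 by the exact permutation test, 0 had an unadjusted p under 0.05 and 55 reached the smallest possible p. No window was called higher, meaning every LPS list above every unstimulated list, or lower, with background shares of 2.37% and 0.0896%.

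The p65 regions of up to 100 kb fell in the same 3 windows, apart from 1 at Atf3, but in some lists only. The lists labelled X held p65 at Junb, Dusp1 and Zfp36, with none unstimulated, 4 regions at 60 min and 3 at 120 min, of up to 100 kb. Wider p65 regions lay over Fos, Egr1, Atf3, Dusp1 and Zfp36 in unstimulated X. With no width limit Fos and Dusp1 were lower at 60 min. The longer lists, 60 min A with 2285 regions and 120 min C with 2110, held none and 1. At Junb, 60 min X held chr8:87499481-87500660 and 120 min X held chr8:87498021-87503780, and both span the narrow p50 site. At Dusp1, 60 min X held a 38.5 kb region and 120 min X held chr17:26639761-26645510, which contains 1 of the p50 regions of LPS A and overlaps another. At Zfp36, 60 min X and 120 min X held regions of 14.3 and 14.5 kb that span the p50 site. No p65 window was called higher, where the background was 0.305% at 60 min and 1.05% at 120 min. With letter X alone, Junb was higher at 60 min, and Junb and Dusp1 at 120 min. The single p65 region of up to 100 kb at Atf3, chr1:193021861-193021960, came from 120 min C and had a score percentile of 99.6 there.

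**Figure D2:**
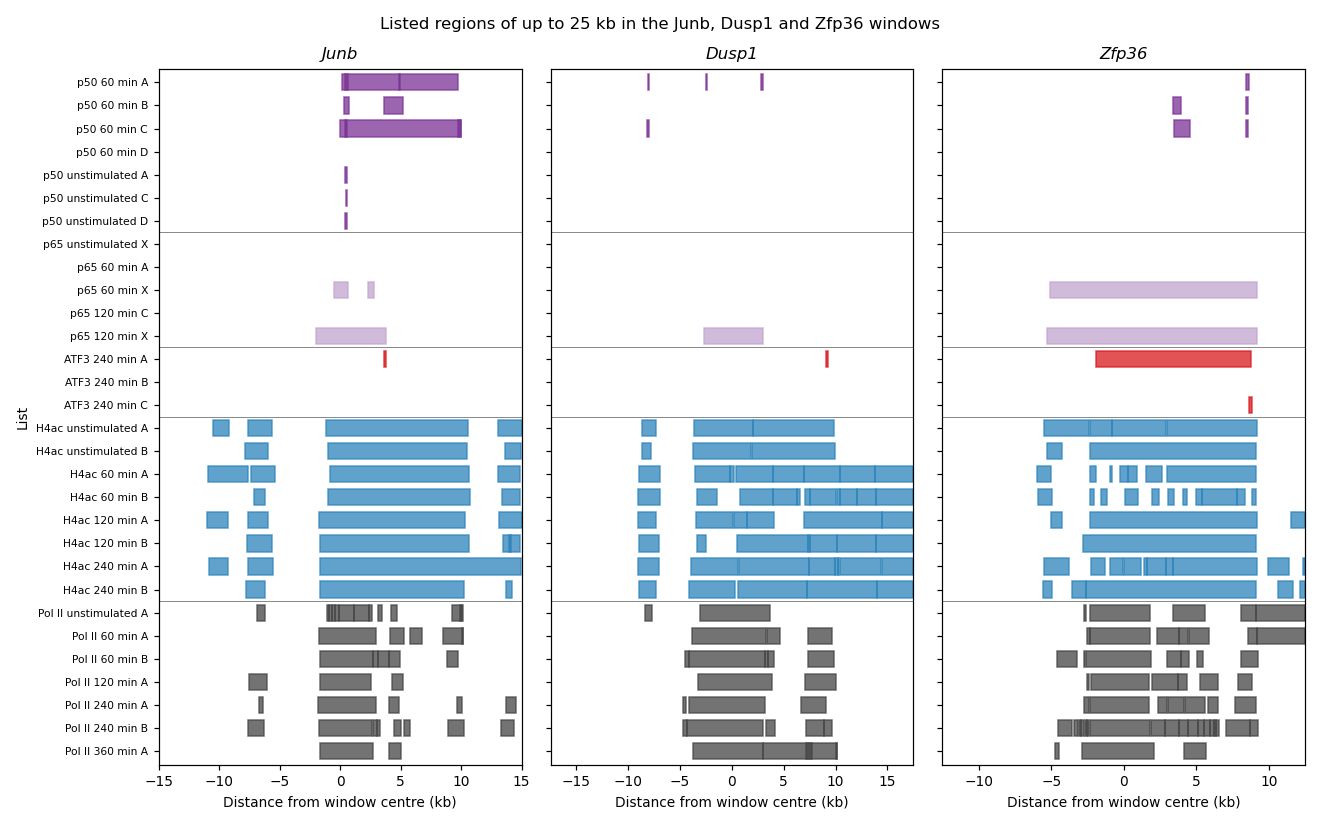
Regions of up to 25 kb in the Junb, Dusp1 and Zfp36 windows, 1 row per list with LPS lists of p50 above the unstimulated ones, plotted as distance from the window centre in kb; a 38.5 kb p65 region and a 44.5 kb ATF3 region at Dusp1 are too wide to be drawn. The narrow p50 site at Junb appears in 6 of 7 p50 lists, the Zfp36 site in 3, and Pol II regions at all 3 loci keep nearly the same place across times.

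The ATF3 lists were made at 240 min of LPS. At its own gene, in the window chr1:192975000-193060000, ATF3 was listed at chr1:193007001-193007270 in A and at chr1:193007011-193007130 in B, and not in C. Atf3 was the 1 window of 8 with ATF3 regions of up to 10 kb in at least 2 of 3 lists. Of 5899 genome tiles with an ATF3 region, 12.8% were held by at least 2 lists. Jun and Egr1 held no ATF3 region of that width, so 1 of 8 is not a like count, and no difference was tested. The shared site had middling score percentiles of 50.5 in A and 33.5 in B. All 7 Pol II lists held a region of 19.2 to 23.5 kb that spans this site and ends 410 to 3160 bp beyond it. All 8 H4ac lists also held a region over it. The ATF3 site at Atf3 is thus near 1 end of a Pol II domain listed with and without LPS.

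ATF3 list A, the longest, held 4 more narrow regions at Atf3. They lay at chr1:192990241-192990390, chr1:193013781-193013950, chr1:193017511-193017780 and chr1:193048181-193048450, at score percentiles of 57.1, 72.5, 15.0 and 15.0. The last 2 had the same width of 270 bp, the same scale and the same score. At the other genes no second list held an ATF3 region of up to 10 kb, though with regions of up to 100 kb Zfp36, and with no width limit also Fos, Dusp1 and Myc, were held by at least 2 lists. List A held chr12:86809631-86809880 at Fos, chr8:87503611-87503770 at Junb, chr17:26651601-26651760 at Dusp1 and chr15:61831121-61831480 at Myc. The regions at Dusp1 and Myc ranked high in that list, at percentiles 95.5 and 96.7, and the one at Fos ranked low, at 9.23. List C held chr7:29171151-29171360 at Zfp36, 10 bp from the p50 site of LPS A, and list A held a 10.7 kb region that contains that p50 site and overlaps the list C region. No ATF3 region of up to 100 kb was listed at Jun or Egr1, and a wider one lay over each in 1 of 3 lists.

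In these windows every p50 and p65 region of up to 10 kb, and most ATF3 regions, overlapped H4ac in some list and Pol II in some list. Of the regions of up to 10 kb, 20 of 20 for p50, 5 of 5 for p65 and 10 of 11 for ATF3 overlapped an H4ac region of up to 25 kb in at least 1 list. Over the whole genome these shares were 68.2% of 5115 p50, 24.0% of 5485 p65 and 46.0% of 7556 ATF3 regions. For Pol II the counts in the windows were 20 of 20, 5 of 5 and 7 of 11, against 31.7%, 13.1% and 14.9% over the genome. The difference was not tested, since nested regions and replicate lists share positions. Every window also held H4ac and Pol II in at least 4 lists each, so the genome shares are not a like comparison.

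Pol II at Dusp1 covered more of the window in every LPS list than in the unstimulated list. It covered 7.38 kb unstimulated, 10.7 and 11.0 kb at 60 min, 17.6 kb at 120 min, 9.98 and 11.1 kb at 240 min and 13.9 kb at 360 min. The 6 LPS lists averaged 12.4 ± 2.88 kb (SD, 6 lists of 4 times), against 7.38 kb in the 1 unstimulated list. With a single unstimulated library there is no test. Regions of up to 25 kb gave 10.1 kb at 120 min, and Dusp1 stayed higher in all 6 LPS lists. With regions of up to 1 kb alone it was lower at 120 and 360 min. Over the genome 4.17% of tiles were higher in all 6 LPS lists, and 27.0% were lower in all 6.

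The Dusp1 Pol II region itself kept its place. At 60, 120 and 240 min it was 7.14 to 7.29 kb wide, for example chr17:26638611-26645750 in 60 min A. It was 6.75 kb wide unstimulated, at chr17:26639461-26646210. At 360 min it was slightly narrower than unstimulated, with 6700 bp at chr17:26638761-26645460. Its score percentile was 99.8 in both 60 min lists, 99.7 at 120 min and 99.8 in both 240 min lists. It was 99.7 at 360 min, against 98.2 unstimulated. The lists are of different length, so the ranks are a description within each list. The LPS lists held in addition a second region further along, such as chr17:26645461-26652650 in the 360 min list. A separate Pol II region of 630 bp, chr17:26634151-26634780, was held by the unstimulated list only, at a low score percentile of 1.98. Over all LPS times 21.8% of 5971 merged Pol II regions were called lost in this way. Among regions of up to 25 kb it was the only Pol II over the Dusp1 p50 site shared by LPS A and C.

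Pol II at Myc went the other way. Myc encodes a transcription factor that drives growth and proliferation. Pol II covered 8.34 kb of the Myc window (chr15:61800000-61840000) unstimulated, 8.04 and 6.27 kb at 60 min, none at 120 min, none in A and 6.32 kb in B at 240 min, and none at 360 min. Every LPS value was below the unstimulated one, though 60 min A was close to it, and the region was called lost at 120 and 360 min. Lost tiles were common, at 49.2% of all tiles at 120 min and 62.6% at 360 min, and these 2 lists were the shortest of Pol II. The 240 min B region had a score percentile of 12.4, against 87.9 for the unstimulated region in its own list.

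Pol II at Junb was wider at 3 of the 4 LPS times. Pol II covered 6.00 kb of the Junb window unstimulated, 8.57 and 11.9 kb at 60 min, 6.56 kb at 120 min, 7.14 and 10.4 kb at 240 min and 5.38 kb at 360 min. Values were above the unstimulated one up to 240 min and below it at 360 min. The LPS lists held 1 region of 4.23 to 4.77 kb over the narrow p50 site, within chr8:87498201-87502970, at score percentiles of 98.1 to 99.6. The unstimulated list held 12 shorter pieces in the window, of which the widest was 1.23 kb and the best scored stood at percentile 99.4. Over that site Pol II was thus listed in pieces without LPS and as 1 region with it, and the LPS lists held 2 to 9 regions in the whole window. With regions of up to 1 kb alone Junb was lower at 60, 120 and 240 min, and in the better-scored 50% and with lists of equal length it was higher at 360 min.

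Fos encodes the partner of the Jun proteins in AP-1. Among regions of up to 25 kb, Pol II covered less of its window at 60 and 120 min than unstimulated. With regions of up to 100 kb, Pol II in the window chr12:86795000-86840000 covered 8.30 kb unstimulated, 0.4 and 25.7 kb at 60 min and 0.1 kb at 120 min. It covered 9.62 and 9.85 kb at 240 min and 6.61 kb at 360 min. The 25.7 kb of 60 min B came mostly from a region over 25 kb, and regions of up to 25 kb covered 5.01 kb there. The 2 lists at 60 min thus lay on both sides of the unstimulated value. With no width limit Fos was higher at 60, 120, 240 and 360 min, and thus not lower at 120 and 360 min. Pol II regions over 100 kb lay over Fos in 5 of 7 lists, and the unstimulated list was not among them. A region of 0.88 kb, chr12:86796361-86797240, was held by the unstimulated list only. Over all LPS times 21.8% of 5971 merged Pol II regions were called lost in this way. The widest region, chr12:86814141-86820110, ranked at percentile 99.6 of the unstimulated list. At the same place it was 0.4 kb wide in 60 min A and 4.74 kb in B, 0.1 kb at 120 min, 5.12 and 5.4 kb at 240 min and 6.61 kb at 360 min, at percentiles of 19.5 to 81.1.

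Jun encodes the AP-1 subunit c-Jun. Pol II covered 6.49 kb of its window (chr4:94680000-94740000) unstimulated, 0.16 and 5.29 kb at 60 min, 5.88 kb at 120 min, 5.61 and 6.80 kb at 240 min and 4.48 kb at 360 min. Values were below the unstimulated one in 5 of 6 LPS lists, with 240 min B as the exception, and with regions of up to 1 kb Jun was higher at 60 and 360 min. Egr1 encodes a zinc finger factor of the early response. Its window (chr18:35005000-35040000) held little Pol II among regions of up to 100 kb. Coverage was 0.72 kb unstimulated, 0.45 and 0 kb at 60 min, 0 kb at 120 min, 0.22 and 5.25 kb at 240 min and 0.14 kb at 360 min. The 240 min B list, the longest of Pol II with 7728 regions, stood apart at Egr1. Pol II regions over 100 kb lay over Egr1 in 4 of 7 lists, those of unstimulated cells, 60 min B, 120 min and 360 min. With no width limit Egr1 was not called lower at 60, 120 or 360 min, but it was at 240 min.

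At Zfp36 and Atf3 the direction of the Pol II difference depended on how regions were chosen. At Zfp36 Pol II covered 11.0 kb unstimulated, 11.8 and 9.03 kb at 60 min, 8.91 kb at 120 min, 9.65 and 12.8 kb at 240 min and 6.78 kb at 360 min. The 60 and 240 min values lay on both sides of the unstimulated one, and the 120 and 360 min values were below it. At 120 min Zfp36 was higher instead under 6 of 7 alternatives, and at 360 min with regions of up to 1 kb and with lists of equal length. The main region at Zfp36, chr7:29160141-29164320 in the unstimulated list, ranked at percentile 99.6 there. The best scored Pol II region of the window was at 99.2 or above in each LPS list. Another merged region, chr7:29157731-29159360, was listed in 60 min B, 240 min B and 360 min and not in unstimulated cells. It was called gained at 360 min, as were 9.40% of 4234 merged Pol II regions. At Atf3, regions of up to 25 kb covered 21.8 kb unstimulated, 23.2 and 22.6 kb at 60 min, 21.2 kb at 120 min, 23.7 and 25.0 kb at 240 min and 20.7 kb at 360 min. With regions of up to 100 kb the unstimulated list reached 63.1 kb and 240 min B 70.2 kb, each through 1 very wide region, while the other lists stayed at 20.7 to 23.7 kb. Atf3 was therefore called lower at 60, 120 and 360 min under the 100 kb limit, and at 60 min it was higher with the 25 kb limit.

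**Figure D3:**
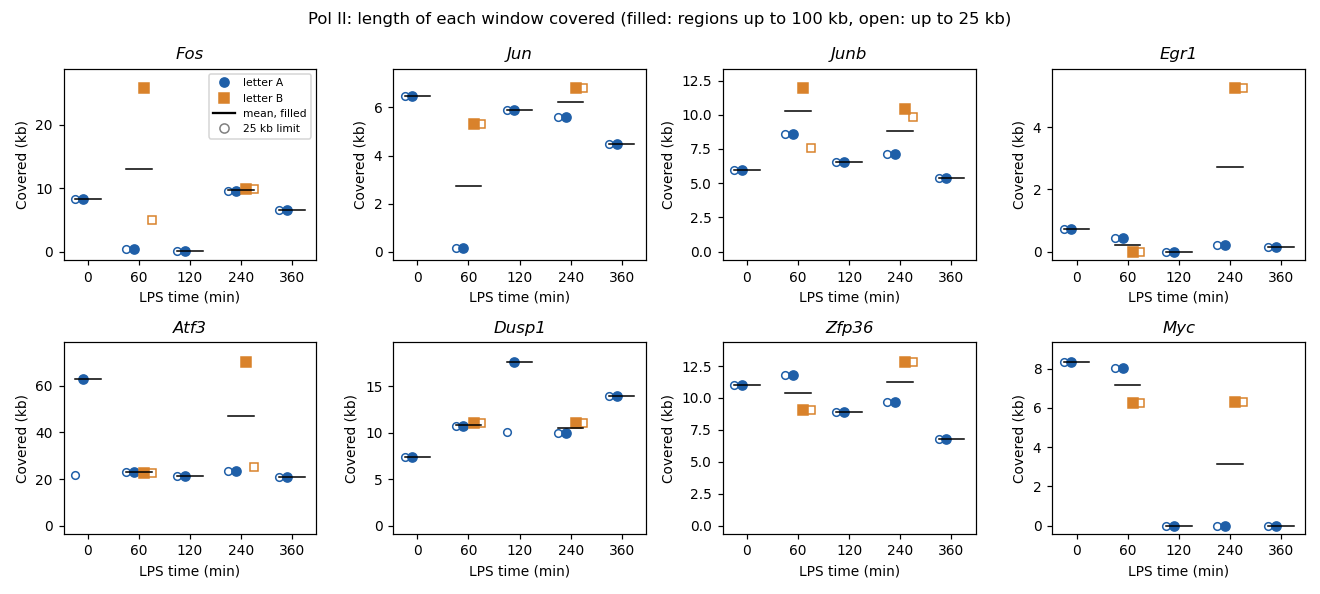
Length of each window covered by Pol II regions (kb) at each LPS time in min, with 0 for unstimulated cells; filled points are lists with regions of up to 100 kb, open points the same lists with regions of up to 25 kb, and bars the mean of the filled points. Dusp1 lies above its unstimulated value of 7.38 kb in all 6 LPS lists and Myc below its value of 8.34 kb in all 6.

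Counted by time, Pol II was higher at Junb and Dusp1 at 60 min, at Junb and Dusp1 at 120 min, at Fos, Junb and Dusp1 at 240 min and at Dusp1 at 360 min. These are 2, 2, 3 and 1 of 8 windows, against 27.2%, 32.9%, 26.6% and 19.2% of all tiles. Pol II was lower in 4, 6, 1 and 7 windows at those times, against 45.0%, 65.4%, 43.0% and 79.8% of all tiles. The counts of higher and lower windows at 60, 120 and 360 min are near these shares. At 240 min 1 lower window, Myc, stood against 43.0% of tiles, and without 240 min B there were 5 lower windows. Without 240 min A, 7 windows were higher at 240 min. The 4 times share the same unstimulated list and are not independent of each other.

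H4ac at Dusp1 covered more of the window with LPS at each time. It covered 14.9 and 14.5 kb in unstimulated A and B, 22.9 and 20.1 kb at 60 min, 19.7 and 19.8 kb at 120 min, and 23.3 and 19.6 kb at 240 min. All 6 LPS lists lay above both unstimulated lists, within letter A and within letter B alike. The LPS lists averaged 20.9 ± 1.69 kb (SD, 6 lists of 3 times), against 14.7 ± 0.255 kb in the unstimulated lists (SD, n = 2), an exact two-sided permutation p of 0.0714. That is the smallest p which 6 lists against 2 allow, so no adjusted value could pass 0.05, and the 6 lists pool 3 times. Across the genome 3.28% of tiles were higher in all 6 LPS lists.

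The H4ac gain at Dusp1 lay on 1 side of the window. Unstimulated regions of up to 10 kb ended at chr17:26652370 in A and chr17:26652450 in B. In LPS lists, regions went on beyond this point, for example chr17:26652891-26656290 and chr17:26656291-26665650 in 60 min A. In 60 min B the region chr17:26656381-26666150 lay at the same place, and in 240 min B the region chr17:26656531-26666630. Unstimulated A held in addition 1 region of 44.0 kb, chr17:26633321-26677290, which spans this stretch, and with regions of up to 100 kb Dusp1 was no longer called higher. Over all times the call also ended in the better-scored 50% of each list and with lists of equal length.

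H4ac at Jun was narrower in all LPS lists among regions of up to 10 kb. It covered 4.27 and 3.73 kb in unstimulated A and B, 0.63 and 0.65 kb at 60 min, 1.32 and 1.37 kb at 120 min, and 2.05 and 1.43 kb at 240 min. The groups did not overlap at any time, and the 2 letters were close at each time. The LPS lists averaged 1.24 ± 0.536 kb (SD, 6 lists), against 4.00 ± 0.382 kb in the unstimulated lists (SD, n = 2), with an exact permutation p of 0.0714. The unstimulated region of A spanned chr4:94717431-94721700, and the LPS regions kept its middle, such as chr4:94719221-94719850 in 60 min A and chr4:94719301-94720670 in 120 min B. Over the genome 16.6% of tiles were lower in all 6 LPS lists. Regions over 100 kb lay over Jun in 5 of 6 LPS lists and in neither unstimulated list, and with no width limit Jun was higher at 60 and 120 min and not called at 240 min.

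Among regions of up to 10 kb, H4ac at Myc covered less of the window with LPS. It covered 11.3 and 11.5 kb in unstimulated A and B, 4.18 and 4.02 kb at 60 min, 0 kb in both lists at 120 min, and 6.69 kb in A and 0 kb in B at 240 min. The LPS lists averaged 2.48 ± 2.88 kb (SD, 6 lists), against 11.4 ± 0.198 kb in the unstimulated lists (SD, n = 2), with an exact permutation p of 0.0714. The right-hand site, chr15:61829881-61835560 in A and chr15:61830361-61835660 in B, was listed in both unstimulated lists and in no LPS list. Of 24406 merged H4ac regions, 7.42% behaved in this way. Regions over 100 kb lay over Myc in 4 of 6 LPS lists and in 1 of 2 unstimulated lists, and with no width limit Myc was not called lower or lost. The other site, chr15:61815561-61821130 in unstimulated A, was kept in both lists at 60 min and in 240 min A. The ATF3 region at Myc, from 240 min list A, lies inside the site that no LPS list of H4ac held.

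At Fos the H4ac call rested on the width limit. Regions of up to 10 kb covered 14.9 and 15.1 kb in unstimulated A and B, 7.68 and 7.11 kb at 60 min, 4.72 and 8.15 kb at 120 min, and 10.7 and 7.28 kb at 240 min. All LPS values were below both unstimulated values. The merged region chr12:86792911-86797020, held by both unstimulated lists and by 240 min A, was called lost at 60 and 120 min. Of all merged H4ac regions, 14.7% and 17.6% were called lost at those times. With regions of up to 25 kb the A lists held 27.2 kb unstimulated, 25.0 kb at 60 min, 33.0 kb at 120 min and 37.8 kb at 240 min. The B lists did not move with that limit, at 15.1 kb unstimulated, 7.11 kb at 60 min, 8.15 kb at 120 min and 7.28 kb at 240 min. Letter B was thus lower at each LPS time under both limits, and letter A was higher at 120 and 240 min under the wider one.

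Among regions of up to 25 kb, the H4ac regions at Atf3 lay apart in unstimulated cells. In the 60 and 240 min lists the stretch between them was largely covered as well. Both 120 min lists held H4ac over chr1:193013781-193013950, which lies in that stretch. Unstimulated A and B held separate regions, such as chr1:193005911-193010610 and chr1:193017101-193026280 in B. The 60 min lists each held 1 region over both, chr1:193003871-193025800 in A and chr1:193003601-193025680 in B. At 240 min both lists held a run of 3 regions over the same ground, starting at chr1:193003441-193008110 in A and chr1:193003661-193007990 in B, the stretch that holds the ATF3 site. Regions of up to 10 kb covered 18.0 and 17.2 kb of the window unstimulated, 10.3 and 1.38 kb at 60 min, 27.2 and 11.8 kb at 120 min, and 28.1 and 22.9 kb at 240 min. The single 60 min regions, of 21.9 and 22.1 kb, exceed 10 kb and are not counted in these values. With regions of up to 25 kb the 60 min values were 32.2 and 23.5 kb, against 37.3 and 20.6 kb unstimulated, and the groups overlapped. With regions of up to 100 kb unstimulated A and B covered 46.4 and 20.6 kb. The LPS lists then covered 36.2 and 27.0 kb at 60 min, 27.2 and 46.3 kb at 120 min, and 28.1 and 53.7 kb at 240 min.

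Junb, Zfp36 and Egr1 showed no H4ac difference that separated the groups at any time with regions of up to 10 kb. At Junb, regions of up to 25 kb covered 17.1 and 14.7 kb in unstimulated A and B, 18.7 and 14.2 kb at 60 min, 17.3 and 15.8 kb at 120 min, and 20.2 and 14.1 kb at 240 min. At Zfp36 they covered 14.5 and 12.6 kb unstimulated, 10.0 and 7.30 kb at 60 min, 13.3 and 11.9 kb at 120 min, and 14.1 and 14.6 kb at 240 min. Zfp36 was thus lower in both lists at 60 min under that limit, while its groups overlapped at 120 and 240 min. At Egr1 the letters parted, with 4.53 kb in A and 3.07 kb in B unstimulated, 7.54 and 0.1 kb at 60 min, 7.43 and 0 kb at 120 min, and 3.73 and 0.18 kb at 240 min. Within each letter, regions of up to 10 kb covered less at 240 min than unstimulated at Junb, with 3.62 against 5.33 kb in A and 2.13 against 3.17 kb in B, and at Egr1 in both letters. At Zfp36 they covered less at 120 min, with 1.79 against 14.5 kb in A and 0 against 1.09 kb in B. With the letter as a block these windows were therefore called lower at those times. With no width limit the direction was the opposite, as Junb, Egr1 and Zfp36 were higher at 120 min and Egr1 and Zfp36 at 240 min. H4ac regions over 100 kb lay over Egr1 in 1 of 2 lists at 60 min, 2 of 2 at 120 min and 1 of 2 at 240 min. Neither unstimulated list held one there.

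**Figure D4:**
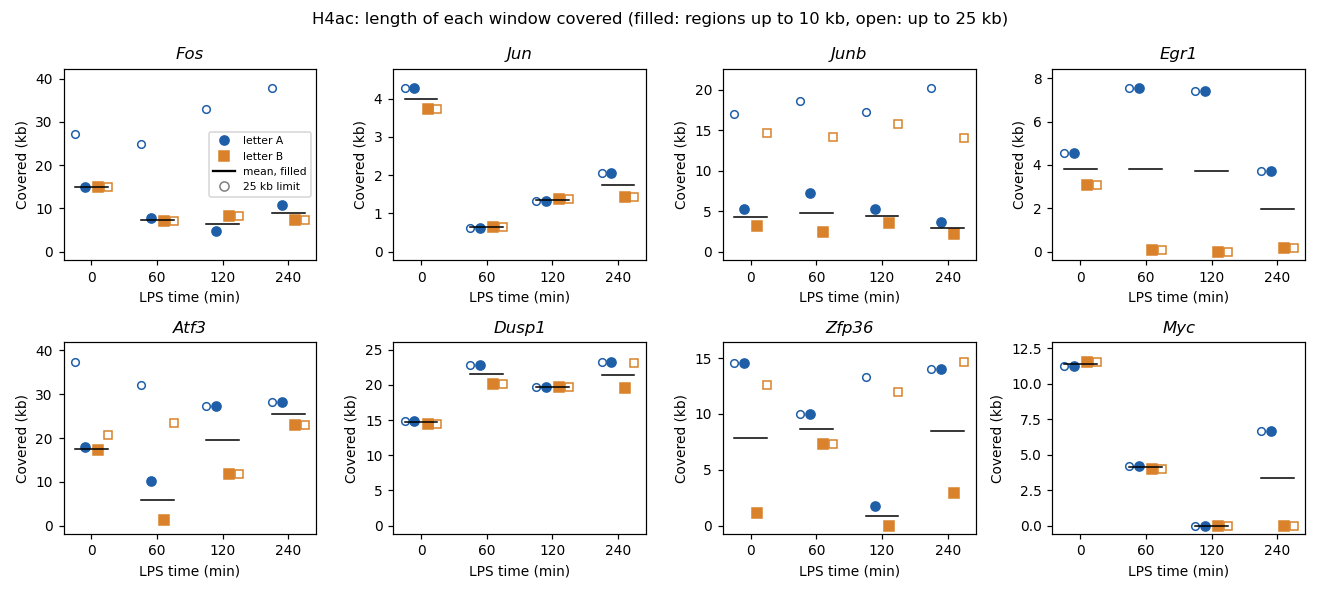
Length of each window covered by H4ac regions (kb) at each LPS time in min, with 0 for unstimulated cells; filled points are lists with regions of up to 10 kb, open points the same lists with regions of up to 25 kb, and bars the mean of the filled points. Jun and Myc lie below and Dusp1 above both unstimulated lists in all 6 LPS lists under both limits, while Fos and Atf3 change with the limit.

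Counted by time, H4ac was higher at Dusp1 at 60 min, at Dusp1 at 120 min, and at Atf3 and Dusp1 at 240 min. These are 1, 1 and 2 of 8 windows, against 11.4%, 13.4% and 17.0% of all tiles. It was lower at Fos, Jun, Atf3 and Myc at 60 min, and at Fos, Jun and Myc at 120 and 240 min. These are 4, 3 and 3 of 8 windows, against 33.3%, 34.3% and 28.7% of all tiles, and Myc was called lost at 120 min, where 14.3% of tiles were. The counts are near the background at each time. They also moved with single lists: without LPS A, 6 windows were lower at 120 min and 5 at 240 min, and without unstimulated B, 5 and 6 were. With 2 lists against 2, no exact p can go below 0.33, so none is given for single times, and the 3 times share the same unstimulated lists.

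**Figure D5:**
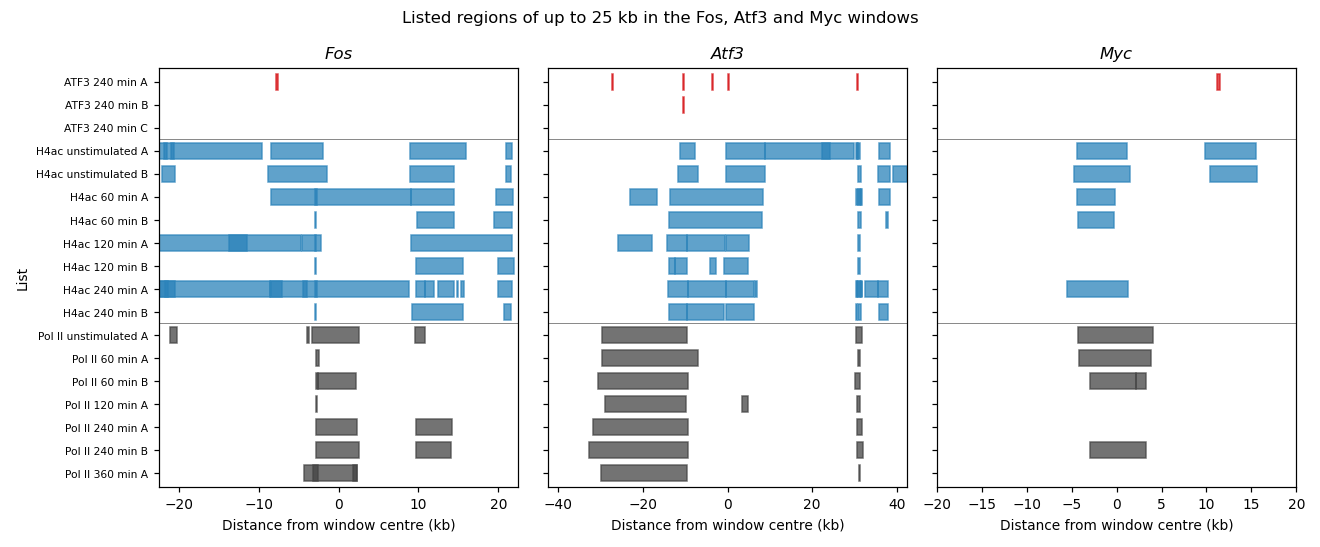
Regions of up to 25 kb of ATF3, H4ac and Pol II in the Fos, Atf3 and Myc windows, 1 row per list in order of time, plotted as distance from the window centre in kb. At Atf3 the Pol II region of 19.2 to 23.5 kb is present in all 7 lists with the ATF3 site near its right end, and at Myc the right-hand H4ac site is drawn in the 2 unstimulated lists only.

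Among regions of up to 100 kb, H3K27me3 was listed at Egr1 and in none of the other 7 windows. The unstimulated list held a region of 47.8 kb, chr18:35002291-35050130, and the list at 60 min of LPS with the 7 h delay held one of 55.2 kb, chr18:34998701-35053890. Each covered the whole Egr1 window, and the lists at 120, 240 and 480 min held none of that width. Wider H3K27me3 regions, left out by the 100 kb limit, lay over Egr1 in 3 of 5 lists, those of unstimulated cells, 120 min and 480 min. They also lay over Atf3 in 5, Junb in 4, Zfp36 in 3, and Fos and Dusp1 in 1 of 5 lists. The 2 Egr1 regions of 47.8 and 55.2 kb ranked low, at percentiles 17.9 of the unstimulated list and 0.510 of the 7 h delay list. With 1 list per condition there is no test, and as the delay list overlapped the unstimulated value Egr1 was not called lower, a call made for 19.2% of all tiles.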

How the data were processed

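ChIP-seq libraries from bone marrow macrophages were made by sonication of fixed chromatin and read from single ends for 36 cycles, per the labels' protocols. The authors deposited 1 region list per library, with a position, a scale number and a score per region; the score is the authors' own. Genome build mm9 is named per the submitters' processing notes, while for the aligner and the region caller nothing is given in the sources used here. Lists are nested, so windows were compared by the base pairs covered by regions of up to 10 kb (p50, p65, ATF3, H4ac) or 100 kb (Pol II, H3K27me3). This width limit is the one fixed for the tests. Regions count if at least 1 bp lies in the window.

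A window was called higher or lower where the lists of LPS and unstimulated cells did not overlap. It was called gained or lost by presence: for p50, 3 LPS lists and no unstimulated one, or 2 unstimulated lists and no LPS one; for other targets, all lists of one group and none of the other. The same calls over all 40 kb genome tiles that hold a region in a list compared gave the background shares; the windows are not all of that width. Covered lengths were tested by exact permutation with the p doubled from the smaller side. Regions of a target that overlapped by at least 1 bp were merged across lists. The naming rule took, per window and target, the merged region held by most lists, ties by mean score percentile, and any merged region called gained or lost. The text gives only a part of the regions that meet this rule. Single-list regions named beside these were chosen after their values were seen. Members, windows and comparisons were chosen with earlier results of these data known. Python 3.11.15, NumPy 2.4.6 and matplotlib 3.10.9 were used. The call rules were run on simulated lists with regions planted in every LPS list. Those lists held no wide regions and no planted losses, so they do not show how the calls behave on lists like these. Other width limits of 1, 25 and 100 kb, no limit, the better-scored 50% of each list, lists of equal length, region midpoints, tiles of 20 and 80 kb and leaving out each list were tried.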

Additional observations from a re-analysis of the deposited data

Results flagged for a closer look

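At 3 windows the direction of a call changed between LPS times. Covered length of H4ac at Atf3, as LPS minus unstimulated, was -11.8 kb at 60 min and 7.93 kb at 240 min, with regions of up to 10 kb; with regions of up to 25 kb neither time was called. Pol II at Fos differed by -8.20 kb at 120 min, 1.44 kb at 240 min and -1.69 kb at 360 min. Pol II at Junb differed by 4.26 kb at 60 min, 0.56 kb at 120 min, 2.78 kb at 240 min and -0.62 kb at 360 min. All lists of one time lay above and all lists of another below the unstimulated value, and the difference between times was not tested. The Pol II times at 120 and 360 min have 1 list each. By Dixon's gap test over the 4 LPS lists, no p50 list was an outlier in covered length at Junb, Dusp1 or Zfp36.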

How the results depend on the processing

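Of 323 values recomputed under an alternative, 240 stayed within 1.5 times of the value reported. Each value is a count of windows, so the tally does not show that the same windows stayed called. For H4ac at 60 min with no width limit, 1 window was higher as before, but it was Jun in place of Dusp1. A count of 0 that stayed 0 also entered the tally as unchanged. Pol II at Dusp1 stayed higher, and at Myc lower, over all LPS times under every alternative tried except regions of up to 1 kb. H4ac at Jun and Myc stayed lower, and at Dusp1 higher, with regions of up to 25 kb, and at Jun it was higher at 60 and 120 min with no width limit. A called window turned direction in 31 combinations of window, time and alternative, which involved Jun (with no limit) and Atf3 (with up to 1 kb) for H4ac and every window but Egr1 and Myc for Pol II. The values that moved further follow as counts of windows, and the cause of each change was not tested. With regions of up to 1 kb, H4ac windows were higher 2 and lower 1 at 60 min, higher 0 and lost 0 at 120 min, lower 0 at 240 min, and higher 0 and lower 0 over all times; Pol II windows were higher 1 and lower 3 at 240 min, higher 4 and lower 3 at 360 min, and lower 2 over all times. With up to 10 kb, Pol II was higher in 4 at 120 min and lower in 2 at 240 min. With up to 100 kb, H4ac was higher in 0 at 60, 120 and 240 min, and higher in 0 and lower in 1 over all times, and ATF3 was in at least 2 lists in 2 windows. With no limit, H4ac was lower in 1 at 60 min, higher in 4, lower in 0 and lost in 0 at 120 min, lower in 0 at 240 min, and higher in 0 and lower in 0 over all times. Pol II without a limit was lower in 2 at 60 min, higher in 4, lower in 2 and lost in 1 at 120 min, lower in 2 at 240 min, higher in 2 at 360 min and higher in 2 over all times, p65 was lower in 2 at 60 min and ATF3 was in at least 2 lists in 5 windows. In the better-scored 50% of each list, H4ac was higher in 0 at 60 min, higher in 0 and lost in 2 at 120 min, higher in 1 at 240 min and higher in 0 over all times. Pol II was then higher in 4 at 60 min, lower in 2 at 240 min, higher in 2 at 360 min, and higher in 2 and lower in 2 over all times, and ATF3 was in at least 2 lists in 0 windows. With lists cut to equal length, chosen after seeing the data, p50 was gained in 0, H4ac higher in 0 and lost in 2 at 120 min and higher in 0 over all times. Pol II was then higher in 4 at 60 min, higher in 5 and lower in 2 at 240 min, higher in 3 at 360 min, and higher in 3 and lower in 2 over all times. With up to 25 kb, also added after seeing the data, H4ac was higher in 1 at 240 min and ATF3 was in at least 2 lists in 2 windows. Leaving out 1 list each time, p50 windows were gained in 0 to 1 and higher in 0 to 2, and p65 higher in 0 to 1 at 60 min and 1 to 2 at 120 min. H4ac was higher in 1 to 3 at 60 min, higher in 1 to 3, lower in 3 to 6 and lost in 1 to 3 at 120 min, and lower in 3 to 6 at 240 min. Pol II was higher in 3 to 7 and lower in 1 to 5 at 240 min, and higher in 1 to 2 and lower in 1 to 4 over all times, and ATF3 was in at least 2 lists in 0 to 1 windows. With the title letter as a replicate block, p50 was gained in 0 windows and H4ac lower in 5 at 240 min, and no other call count changed by over 1.5 times. Same-letter lists deviated together with correlations of -0.0401, 0.00419 and 0.164 for p50 and 0.0672 to 0.0952 for H4ac, so the letters were not taken as pairing. Pol II and p65 have 1 unstimulated list, and H3K27me3 has 1 list per condition, so no block was fitted and the unstimulated list was not left out there. With tiles of 20 and 80 kb the p50 gained background was 10.8% and 11.1%, the share of tiles higher over all LPS times was 3.05% and 3.61% for H4ac and 3.55% and 4.82% for Pol II, and the share lower was 16.0% and 17.4% for H4ac and 23.4% and 29.2% for Pol II. The region lists hold no read counts, and how far depth limits what was listed is unknown.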
